A study of Mus musculus with 2 samples.

Results

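The genes described here encode eukaryotic translation initiation factors and their regulators, and the data are RUNX2 CUT&Tag peak lists from MC3T3-E1 cells. Members are the protein-coding genes of the RefSeq annotation of GRCm38 (mm10) on chromosomes 1 to 19 whose symbol starts with Eif and a digit. This rule selects 53 of 20665 protein-coding genes on these chromosomes and uses no measured value. MC3T3-E1 is a mouse line of osteoblast precursors, and RUNX2 is the transcription factor required for osteoblast differentiation. CUT&Tag uses an antibody to bring the Tn5 transposase to a protein on chromatin, where it cuts the DNA. The cells were untreated, and 2 replicate libraries form 1 group, with no control library among the samples. Replicate 1 has 26853 peaks and replicate 2 has 27287, each with a position and a width but no height, so depth is unknown. Nothing in the labels tells separate cultures from repeats of 1 culture, so the spread between the replicates may be technical.

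Translation initiation brings the ribosome to the start codon of an mRNA. The cap-binding complex eIF4F recruits the small subunit, which carries eIF3 and the initiator tRNA bound to eIF2, and eIF1, eIF1A, eIF5 and eIF5B act in start codon choice and subunit joining. Stress kinases phosphorylate eIF2, which lowers overall initiation while mRNAs such as that of ATF4, a factor needed by osteoblasts, are still translated. Osteoblasts secrete large amounts of collagen, and the eIF2 kinase PERK is known for its part in bone formation.

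RUNX2 peaks of both replicates lay at the starts of most of these genes. A peak pair that overlaps by at least 1 bp between the lists is merged and called a shared region. Of the 53 genes, 46 (86.8%) had a shared region inside the gene or within 10 kb of either end, beside 54.8% of all protein-coding genes. A shared region lay within 1 kb of the gene's start in 42 (79.2%), beside 35.1% of all protein-coding genes. The start is taken from the RefSeq promoter table, which has entries for 41 members, and either end of the gene was used for the other 12. Among the 41, a shared region covered an annotated start in 33 (80.5%), beside 31.2% of the 16457 protein-coding genes with an entry. The median length was 17815 bp for the members and 17491 bp for all protein-coding genes. No test of the list was made, and the shares are a description of these lists.

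The replicates gave nearly the same count of genes. A peak lay within 1 kb of the start in 43 members in replicate 1 and in 45 in replicate 2 (mean 44.0 ± 1.41, SD, n = 2), and in 42 members in both. Over all protein-coding genes the shares were 40% in replicate 1 and 40.3% in replicate 2. Among the members such a peak was found in 1 replicate for 4 members and in neither for 7. Of the 41 members with a promoter entry, an annotated start lay inside a replicate 1 peak in 32, inside a replicate 2 peak in 29 and inside peaks of both in 26. Over all genes with an entry the shares were 31.2%, 31.2% and 26%.

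**Figure D1:**
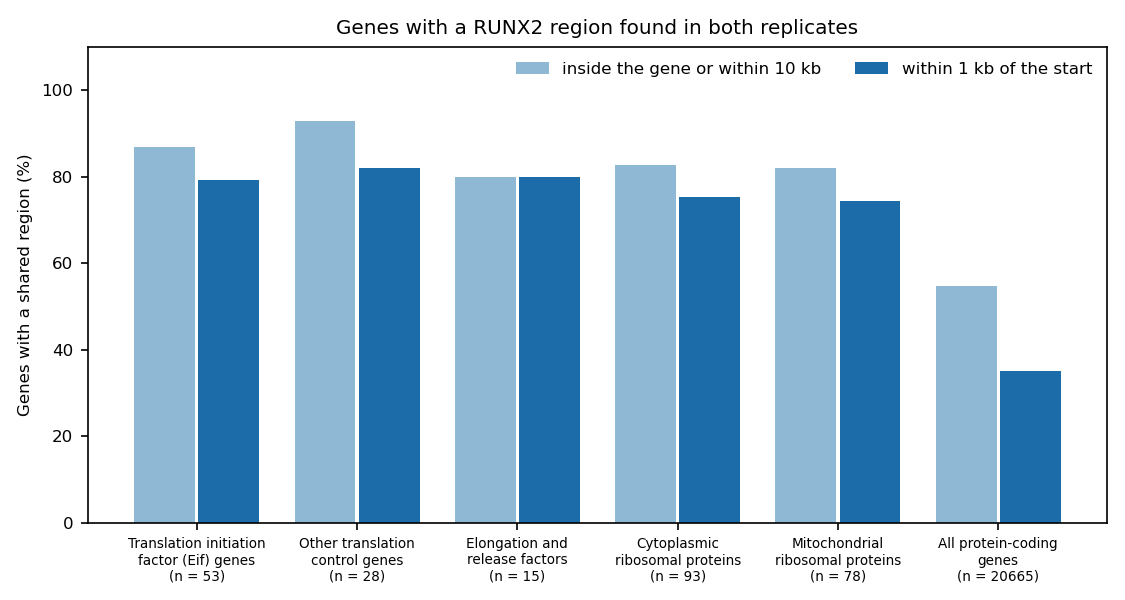
Percentage of genes with a shared region inside the gene or within 10 kb (light bars) and within 1 kb of the start (dark bars), for the 53 Eif genes, 4 other gene lists and all 20665 protein-coding genes. The Eif genes stand at 86.8% and 79.2%, and all protein-coding genes at 54.8% and 35.1%.

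The promoters of 5 members are shown, with DNA from beneath these peaks at all but Eif1b. Each line gives the 250 bases before the annotated start (RefSeq, GRCm38.p6), 5′ to 3′ on the gene's strand, with matches to the named motifs in capitals. Eif3a and Eif5b are shown for the RUNX core TGTGGT or its variant TGCGGT (reverse complements ACCACA and ACCGCA), Eif3c for the ETS letters CCGGAAG (reverse complement CTTCCGG), and Eif4a1 for an E-box (CACGTG) and a YY1 motif (AAGATGGC). Eif1b, shown for its E-box and ETS letters, is the contrast without any peak.
Eif3a, chr19:60790694-60790943, minus strand: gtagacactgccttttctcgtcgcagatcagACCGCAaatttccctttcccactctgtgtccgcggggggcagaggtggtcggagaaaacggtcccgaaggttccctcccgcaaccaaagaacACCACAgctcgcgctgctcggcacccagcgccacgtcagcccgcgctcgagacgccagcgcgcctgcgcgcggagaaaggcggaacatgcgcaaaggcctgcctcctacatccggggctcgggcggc
Eif5b, chr1:37997760-37998009, plus strand: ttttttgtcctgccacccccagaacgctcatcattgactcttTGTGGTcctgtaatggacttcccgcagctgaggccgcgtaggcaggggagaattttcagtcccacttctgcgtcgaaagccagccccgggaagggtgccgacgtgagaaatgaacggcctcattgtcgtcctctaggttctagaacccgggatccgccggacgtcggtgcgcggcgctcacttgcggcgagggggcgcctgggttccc
Eif3c, chr7:126566367-126566616, minus strand: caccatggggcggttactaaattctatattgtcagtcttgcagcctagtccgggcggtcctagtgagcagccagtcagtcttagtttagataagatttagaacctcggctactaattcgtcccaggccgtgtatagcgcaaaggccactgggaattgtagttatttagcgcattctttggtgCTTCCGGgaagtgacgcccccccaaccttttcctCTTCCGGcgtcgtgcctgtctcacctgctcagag
Eif4a1, chr11:69672424-69672673, minus strand: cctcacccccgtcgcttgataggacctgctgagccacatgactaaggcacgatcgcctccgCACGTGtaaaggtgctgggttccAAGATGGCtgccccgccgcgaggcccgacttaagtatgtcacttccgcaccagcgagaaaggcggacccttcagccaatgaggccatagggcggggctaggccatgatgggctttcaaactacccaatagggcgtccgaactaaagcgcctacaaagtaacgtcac
Eif1b, chr9:120492356-120492605, plus strand: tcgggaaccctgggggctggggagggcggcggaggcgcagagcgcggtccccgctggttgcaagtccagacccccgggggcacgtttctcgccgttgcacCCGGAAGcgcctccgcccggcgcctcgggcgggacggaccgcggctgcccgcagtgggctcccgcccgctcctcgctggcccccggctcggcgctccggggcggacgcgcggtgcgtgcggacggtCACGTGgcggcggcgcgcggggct

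Peaks of both replicates took in all or nearly all of the first 4 stretches. All 250 bases lay in peaks of both lists at Eif3a and Eif4a1. At Eif3c, 248 bases lay in the replicate 1 peak and 250 in that of replicate 2. At Eif5b, 235 lay in the nearer of 2 replicate 1 peaks and 250 in the replicate 2 peak. At Eif1b the number was 0 in both.

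Of the 5 genes for start codon selection and subunit joining, 4 had a region at the start. At Eif1, which encodes the factor that guards start codon fidelity, the peaks of replicates 1 and 2 in chr11:100319643-100320588 measured 907 and 946 bp, and both covered the start. Its paralogue Eif1b had no peak of either list within 10 kb, and its nearest shared region was 26873 bp from the start. Eif5, which encodes the GTPase-activating protein for eIF2, had peaks of 485 and 507 bp across its start (chr12:111537734-111538276). Eif1a, which encodes the partner of eIF1, had peaks of 732 and 639 bp across the low end of the gene (chr18:46597610-46598341). An end of Tmed7 lay 75 bp from this region. These 3 pairs of peaks differed little in width between replicates. At Eif5b, the GTPase gene of subunit joining, a single replicate 2 peak of 1356 bp spanned 2 replicate 1 peaks, the wider of them 573 bp (chr1:37996783-37998148), and the region also covered the start of Txndc9. Eif1ad, which encodes a protein with an eIF1A-like domain, had peaks of 892 and 871 bp (chr19:5366005-5366946) across its own start and a start of Banf1.

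The genes that deliver the initiator tRNA were covered at Eif2s1, Eif2s2 and Eif2a but not at Eif2d. Eif2s1 encodes the alpha subunit of eIF2, which the stress kinases phosphorylate, and its peaks were 574 bp in replicate 1 and 723 bp in replicate 2 (chr12:78861306-78862085). The replicate 1 peak covered the Eif2s1 start and the replicate 2 peak did not, and the region also covered the start of Atp6v1d. Eif2s2, for the beta subunit, had peaks of 623 and 760 bp across the start. A second Eif2s2 region, 9097 bp from the start, had 238 bp in replicate 1 and 1003 bp in replicate 2. Its ratio of wider to narrower peak, 4.21, was the highest among all regions described here. Eif2a, which encodes an alternative initiation factor, had peaks of 746 and 552 bp (chr3:58525695-58526440) in a region that also covered the start of Serp1. Eif2d, which encodes another noncanonical factor, had a replicate 2 peak of 607 bp across its start without a partner in replicate 1. Its 1 shared region lay inside the gene, 31105 bp from the start.

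All 5 genes of eIF2B, the guanine nucleotide exchange factor of eIF2, had a shared region, and 4 had it at the start. Eif2b4, for the delta subunit, had the widest of these start regions in replicate 1, 1092 bp, with 818 bp for the wider of 2 peaks in replicate 2 (chr5:31192648-31193876), and Snx17 starts in the same region. Eif2b3, for the gamma subunit, had peaks of 657 and 669 bp at its low end. The starts of Eif2b2 and Eif2b5, for the beta and the catalytic epsilon subunit, had narrow peaks. Those of Eif2b2 measured 227 and 226 bp (chr12:85219222-85219528), and those of Eif2b5 214 and 314 bp (chr16:20498397-20498869). In both genes the replicate 1 peak contained the start and the replicate 2 peak ended short of it. At Eif2b1, for the alpha subunit, the region of 892 and 792 bp lay 2919 bp from the start and 2902 bp from an end of Gtf2h3.

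The 4 eIF2 kinase genes all had a region across the start. Eif2ak3, which encodes PERK, the kinase of endoplasmic reticulum stress, had peaks of 697 bp in replicate 1 and 452 bp in replicate 2 (chr6:70843855-70844551), both over the start. It had another pair of 272 and 203 bp inside the gene, 27685 bp from the start. Eif2ak4, which encodes GCN2, the sensor of amino acid shortage, had 3 regions. The region at its start (chr2:118388351-118389608) held 2 replicate 1 peaks, the wider of 614 bp, and a single replicate 2 peak of 992 bp. A second pair of 269 and 372 bp lay inside Eif2ak4, and the last region covered an annotated start of Srp14. Eif2ak1, which encodes the heme-regulated kinase HRI, had peaks of 363 and 340 bp at the start, with the start inside the replicate 1 peak alone. Eif2ak2, which encodes the kinase PKR activated by double-stranded RNA, had peaks of 534 and 211 bp, both over its start (chr17:78882507-78883040).

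In the eIF3 complex, the scaffold between the mRNA and the small ribosomal subunit, 12 of 14 genes had a shared region, and all 12 had it at the start or, without a promoter entry, at an end. The 10 eIF3 genes with a promoter entry all had a start covered by a shared region. The start lay inside the replicate 2 peak alone at Eif3b and inside the replicate 1 peak alone at Eif3k. Eif3c, for a core subunit, had peaks of 940 bp in replicate 1 and 1004 bp in replicate 2 (chr7:126565675-126566736), the widest in both lists among the shared regions of the complex. Eif3a, for the largest subunit, had 671 and 752 bp (chr19:60790401-60791373), and Eif3b, for another core subunit, had 756 and 977 bp. The pairs were close in width at Eif3d (614 and 575 bp), Eif3j1 (592 and 613 bp), Eif3m (538 and 579 bp) and Eif3l (317 and 336 bp). They were less alike at Eif3f (440 and 695 bp), Eif3g (166 and 507 bp) and Eif3k (529 and 205 bp), and the Eif3k region also covered a start of Map4k1. Among the subunit genes without a promoter entry, Eif3i had 280 and 396 bp at an end shared with Tmem234. Eif3h had the most regions of any member, 4 in all. One of 194 and 632 bp was at its high end (chr15:51865242-51865873), and the other 3 lay inside the gene, 11456 to 18249 bp from an end. An Eif3h peak of 988 bp inside the gene was in replicate 1 alone. Eif3e had a replicate 2 peak of 366 bp at its high end without a partner, and Eif3j2 had 1 replicate 1 peak, 5703 bp away.

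Of the 7 cap-binding and scaffold genes, 5 had a region within 1 kb of a start or end. Eif4e encodes the cap-binding protein, and its region (chr3:138526270-138527327) held 1 replicate 1 peak of 999 bp and 2 replicate 2 peaks, the wider of 657 bp. It covered the downstream of the 2 annotated Eif4e starts and began 79 bp past the low end of the gene. A further Eif4e region of 448 and 262 bp lay 9728 bp from the nearest start. Eif4e2, whose product competes for the cap as a repressor, had peaks of 373 and 758 bp at the start (chr1:87213069-87213975). An annotated Eif4e2 start lay inside the replicate 1 peak alone. Eif4g1, for the main scaffold of eIF4F, had 369 and 306 bp over its start (chr16:20672530-20672898), and Eif4g2, for a scaffold that does not bind eIF4E, had 596 and 554 bp at its high end. Eif4g3, for a second scaffold, had none at its starts: the nearest shared region, of 525 and 516 bp, was 3442 bp from the nearer one, and 4 more peaks around this gene were in 1 replicate alone. The Eif4e1b region of 821 and 1076 bp lay 692 bp beyond one end of the gene. It lay 49 bp from an end of Tspan17 and covered an annotated start of that gene, so it is nearer to Tspan17. Eif4e3 had 1 peak in each replicate, of 495 and 490 bp, at different places.

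Among the helicase genes and their cofactors, 4 of 6 had a region across the start. Eif4a1, for the main helicase of eIF4F, had peaks of 658 and 619 bp with nearly the same borders (chr11:69672024-69672681). Its 2 other regions covered annotated starts of Mpdu1 and Senp3. Eif4a2, for the paralogous helicase, had peaks of 382 and 734 bp over the start and a second pair of 269 and 261 bp inside the gene, 640 bp from the start. Eif4a3, which encodes the helicase of the exon junction complex, had 836 and 741 bp (chr11:119299919-119300783), and Eif4b, for a helicase cofactor, had 786 and 575 bp and a second region of 203 and 160 bp, nearer to Tns2. Eif4h, for the other cofactor, had a replicate 1 peak of 328 bp 210 bp from its start and a replicate 2 peak of 349 bp 9462 bp from it, and no shared region. Eif4a3l1, a copy related to Eif4a3, had no peak in either list within 10 kb.

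The genes that restrain eIF4E had regions at 3 of 4. Eif4ebp1 encodes 4E-BP1, the inhibitor released from eIF4E when mTOR phosphorylates it, and had a replicate 2 peak of 1386 bp over its low end (chr8:27260215-27261600). In replicate 1 this stretch held 2 peaks, the wider of 488 bp. Eif4ebp2, for a second inhibitor, had 379 and 263 bp, and this region stopped 138 bp short of the start. Eif4enif1, which encodes the eIF4E transporter, had 536 and 401 bp (chr11:3202054-3202589). Eif4ebp3 had 2 replicate 1 peaks of 195 and 181 bp, both outside the gene, and none in replicate 2. Of the last 3 genes, Eif6, whose product keeps the ribosomal subunits apart, had a region at each end. That at its low end, of 1357 and 1108 bp (chr2:155818615-155820035), had the widest replicate 1 peak of the regions counted at starts. It also lay over a start of BC029722. Eif6 has no promoter entry, so both regions were counted, and which end is its start is not given. Eif5a, which encodes the hypusine-containing factor eIF5A, had 771 and 832 bp at its cluster of starts (chr11:69921179-69922010). Eif5a2 had a replicate 2 peak of 519 bp over its start without a partner, and its shared region lay at Rpl22l1.

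**Figure D2:**
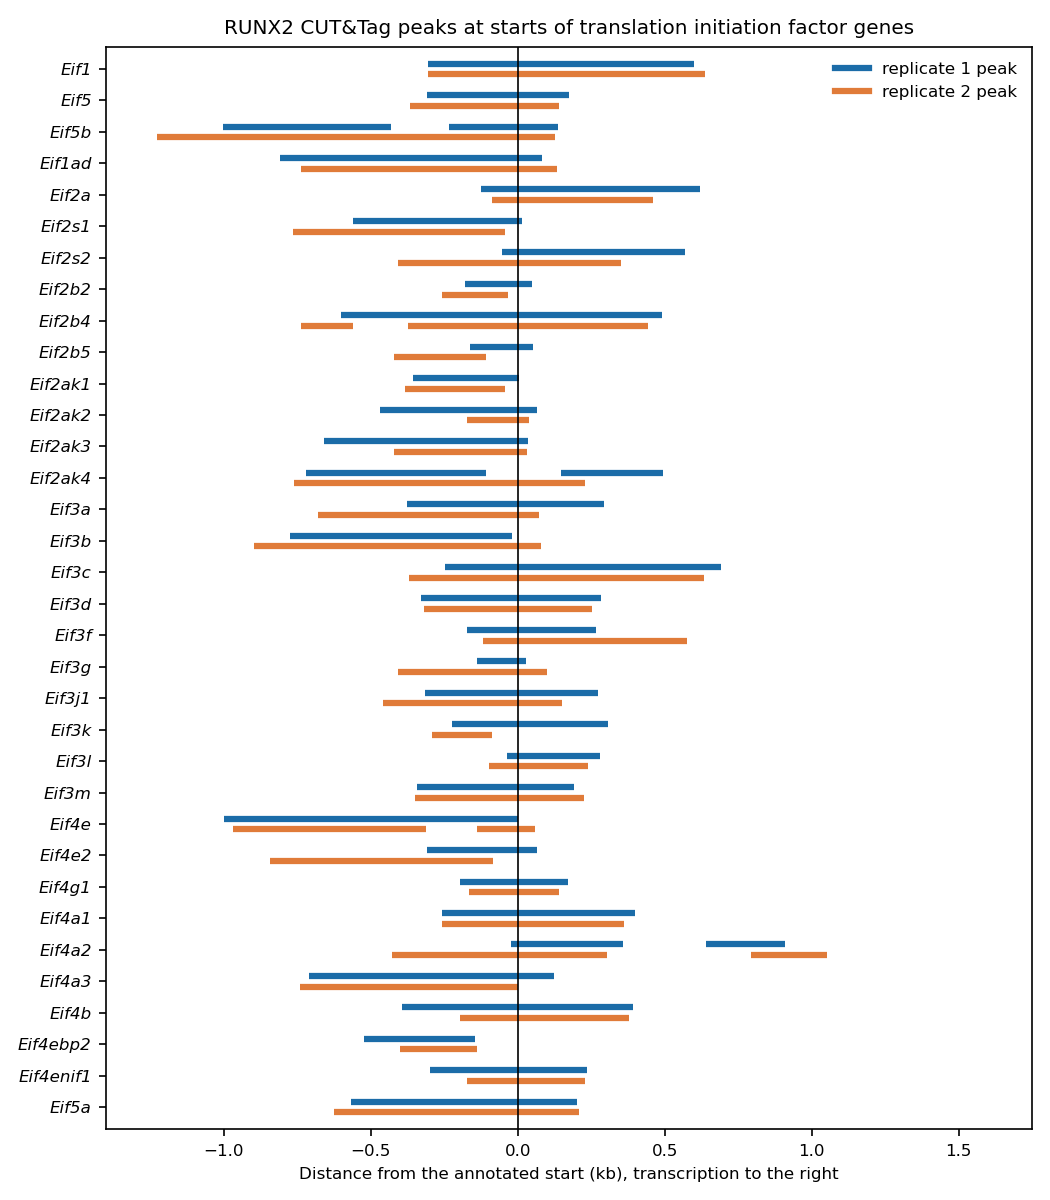
Peaks of replicate 1 (blue) and replicate 2 (orange) in the shared regions within 1 kb of the start, for the 34 members with a promoter entry and such a region. The horizontal axis gives the distance in kb from the annotated start nearest to the region, with transcription to the right, and most bars cross or lie just left of 0.

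The regions at starts leaned to the upstream side. Over the 35 regions whose gene has an annotated strand, the midpoint lay upstream of the start in 26 (74.3%), beside 59.3% of the 6129 gene and region pairs at starts of all protein-coding genes with an entry. The median midpoint was at -106 bp, and at -47 bp for all those pairs. Midpoints ranged from -545 bp at Eif5b to 847 bp at the second Eif4a2 region, and 71.4% lay within 300 bp of the start, beside 79.4% of all pairs.

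Peaks at the members' starts had a larger median width than all peaks of a list, as did those at starts of all protein-coding genes. The 44 start regions include those at either end of members without a promoter entry, with both ends of Eif6. The widest peak per region had a median of 583 bp in replicate 1 (range 166 to 1357) and 625.5 bp in replicate 2 (205 to 1386). The median over all peaks of a list was 395 bp in both replicates, and over the 6452 shared regions at starts of any protein-coding gene it was 541.5 and 548 bp. The 23 member regions away from the start had medians of 518 and 470 bp. Between replicates the wider peak was a median of 1.27 times the narrower at starts, and 7 of the 44 differed by 2 times or more, among them Eif3g and Eif3h. Replicate 2 was the wider in 24 and replicate 1 in 20.

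**Figure D3:**
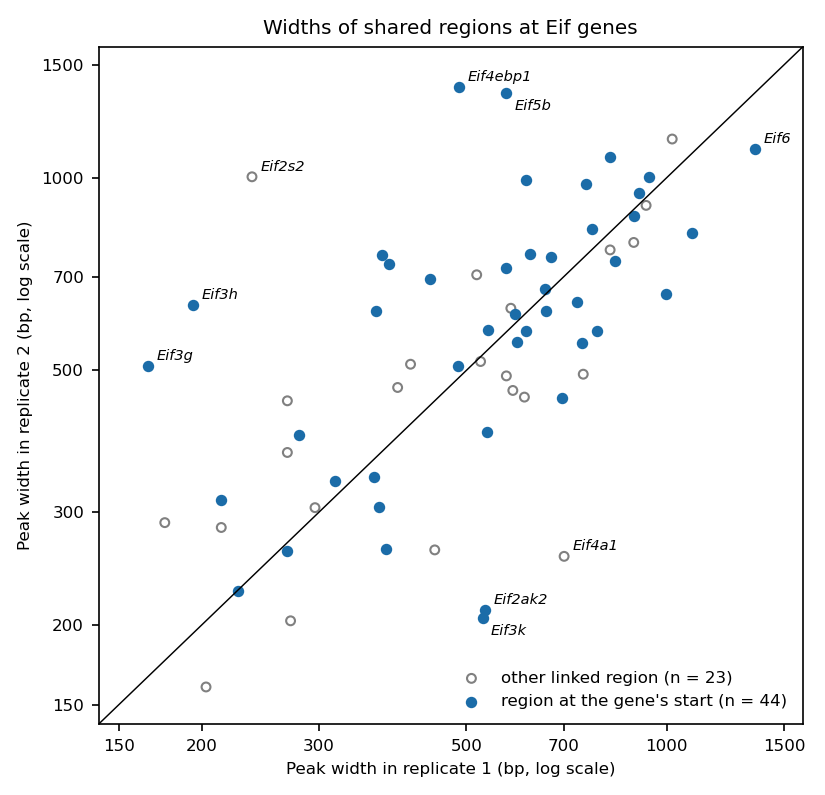
Width of the widest peak in replicate 1 (horizontal) and replicate 2 (vertical), in bp on log axes, with the line of equal width. Filled points are the 44 shared regions at starts of Eif genes, or at either end of those without a promoter entry. Open points are the 23 other linked regions. Eif6 has the widest replicate 1 peak, 1357 bp, and Eif4ebp1 and Eif5b lie above the line with replicate 2 peaks of 1386 and 1356 bp.

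Several of these regions were not the members' alone. Of 67 linked regions, 15 were nearer to an end of another protein-coding gene, and 14 of those were among the 23 away from the member's start. Such regions lay at Actn4 (linked to Eif3k), Dvl3 (Eif2b5), Gtf3c2 (Eif2b4), Ppan (Eif3g) and Aimp2 (Eif2ak1). Of the 44 start regions, 11 also lay within 1 kb of an annotated start of another protein-coding gene. These were the starts of Txndc9, Serp1, Snx17, Map4k1, Atp6v1d, Banf1, BC029722, Tmem234, Tspan17, Gm51877 and Gm26637. The same counts over all protein-coding genes are not given here, so this sharing is not shown to be particular to the members. A link shows position, and which of 2 adjoining genes a region belongs to was not tested. Peaks without a partner in the other list were 21 of 91 member peaks in replicate 1 (23.1%, beside 31.6% of all peaks) and 13 of 82 in replicate 2 (15.9%, beside 32.7%).

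Over all protein-coding genes, promoter CpG content moved with the coverage of starts. For a gene with several 300-base promoter windows, the window with the most CpG was counted, and any of its starts could be the covered start. The 41 members held a median of 24 CpG (3 to 50), and the median over all protein-coding genes with an entry was 15. Over all genes, a start was covered in 1.31% with up to 4 CpG and in 56.5% with 20 to 24. Of the 22 members with at least 24 CpG, 16 had a covered start (72.7%), beside 50.1% of all genes with at least 24. Of the 19 members below 24, 17 were covered (89.5%), beside 22.8% of all genes below 24. Members and all genes below 24 differ in CpG content, so these shares do not compare like promoters. The classes of 0 to 4, 5 to 9 and 10 to 14 CpG hold 4357, 2079 and 1545 of all genes and 1 member each. In these classes 1.31%, 10.2% and 34.7% of all genes were covered. In the class of 15 to 19 CpG, 8 of 9 members were covered, beside 50.1% of all genes. In the class of 20 to 24 CpG, 10 of 10 members were covered, beside 56.5% of all genes. With 25 or more it was 13 of 19, beside 49.2% of all genes there. Eif1b had the highest CpG count of the members, 50, and no peak, while Eif2b5 was covered with 9. Expression of these genes was not analysed here, and the part of CpG content in the members' counts was not tested.

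**Figure D4:**
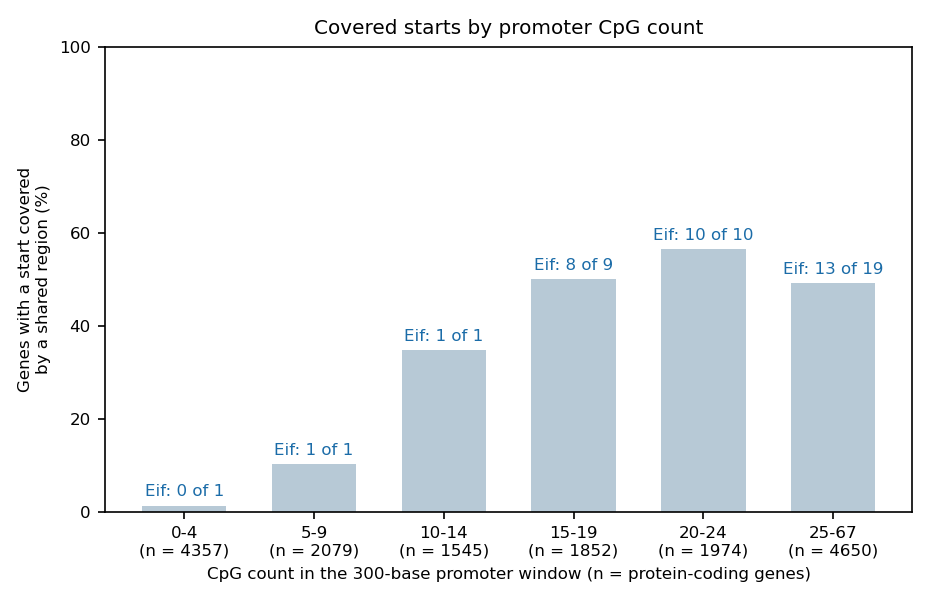
Percentage of protein-coding genes with an annotated start covered by a shared region, by CpG count in the 300-base promoter window. The window with the most CpG is used for a gene with several. The number of Eif genes covered is written above each bar. The share rises from 1.31% to 56.5% and is 49.2% in the highest class, where 13 of 19 Eif genes are covered.

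Letters of the RUNX core were not common in the members' promoter windows. TGTGGT on either strand occurred in the windows of 5 of 41 members (12.2%), beside 17.0% of all genes with an entry and 15% of the genes with a covered start. The variant TGCGGT also occurred in 5 members (12.2%, beside 8.61% and 12.8%). Of the 33 members with a covered start, 6 had either form (18.2%, beside 26.0% of the 5138 covered genes). They were Eif3a, Eif5a, Eif5b, Eif2a, Eif3g and Eif2b5. Eif3a had both, with ACCACA beginning at position -127 and ACCGCA at -219, where -1 is the base before the start, and Eif5b had TGTGGT at -208. Genes with several starts have several windows, and Eif5a has 6. The peaks are wider than these windows, so letters elsewhere beneath them were not searched.

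The other motifs searched differ in length, so their counts stand beside the shares over all genes and over genes with a covered start. The members' shares are over all 41, with or without a covered start. The ETS, E-box, AP-1 and YY1 shares were above both, AP-1 and YY1 with 5 and 3 members. The SP and KLF share was near that of covered genes, and the CCAAT share was below both. The AP-1, YY1, NRF1 and CRE letters were in 5 members or fewer. The ETS letters CCGGAAG were in 15 of 41 members (36.6%), beside 13.3% of all genes and 26.7% of genes with a covered start. In Eif3c they occurred at positions -68 and -34, as CTTCCGG. The E-box CACGTG, the core bound by MYC and related factors, was in 10 members (24.4%, beside 9.01% and 12.8%), among them Eif4e, Eif4g1, Eif4a1 and Eif5a. The SP and KLF letters GGGCGG were in 30 (73.2%, beside 50.3% and 73.1%). CCAAT was in 16 (39%, beside 42.3% and 49.2%), the AP-1 letters TGANTCA in 5 (12.2%, beside 8.23% and 5.74%), the YY1 letters AAGATGGC and the NRF1 letters GCATGCGC in 3 each (7.32%), and the CRE TGACGTCA in 0. For YY1 the 2 comparison shares were 3.59% and 6.71%, for NRF1 3.99% and 7.98%, and for the CRE 2.63% and 5.08%. Each motif was searched on both strands, and a match is a description of letters, not of binding.

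Other genes of the translation machinery had shares much like those of the initiation factors. Of 28 genes of translation control without an Eif symbol, 26 had a shared region and 23 had it at the start. Among the widest by mean rank were Atf4 at 1093 and 1321 bp and Impact, an inhibitor of GCN2, at 1045 and 1521 bp inside the gene. Of 15 elongation and release factor genes, 12 had a region at the start. Eef1a1, for the main elongation factor, had 861 and 859 bp and Gspt1, for a release factor, 796 and 821 bp, while the Eef1g region of 1713 and 1169 bp lay 4475 bp from its start. Both mitochondrial initiation factor genes were linked, and Mtif2 alone had a region at the start. The widest Mtif2 region was 672 and 652 bp, 21407 bp from the start, and the Mtif3 region was 467 and 324 bp, 2773 bp away. At starts the share was 75.3% for 93 cytoplasmic ribosomal protein genes and 74.4% for 78 mitochondrial ones, beside 79.2% for the initiation factors. Differences between these lists were not tested.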

How the data were processed

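The deposited files are 1 peak list per replicate, with 5 columns and no header: a running number, chromosome, start, end and width in bp. Width equals end minus start plus 1 in every line, so the first base of a chromosome was taken as 1. Neither list has a score, signal or p-value. Per the submitters' processing notes, the tools were fastp 0.19.6, Bowtie2 and deepTools and the build was GRCm38 (mm10), while the peak caller and threshold were not given in the sources used here. Gene spans, starts, strands and promoter sequences came from RefSeq tables of GRCm38.p6, with 41 of 53 members matched in the promoter table.

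Peaks overlapping by at least 1 bp were merged with Python 3.11.15, pandas 2.3.3 and numpy 2.4.6, and a region with peaks of both lists is shared. Where a list has several peaks in a region, the widest gives the width. Distances run from the region's nearest edge. Merging was checked on simulated peaks and its overlap counts against bedtools 2.31.1. No test between groups was possible with 1 group, so counts stand beside the same share over all genes. Members, gene lists and motifs were chosen with earlier results of these data known. The rule for naming was every member, with widths for members with a start region or several regions, and the 3 widest by mean rank in each other list, of which 1 gene is not reported here. The sequences printed and the single-replicate peaks were chosen after their values were seen. Alternatives were wider peaks, a reciprocal overlap of 50%, each replicate alone, other distances and midpoints, and 2 were added after seeing the data.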

Additional observations from a re-analysis of the deposited data

How the results depend on the processing

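The count of members with a shared region was 38 when each list was limited to peaks above its median width (37.9% of all protein-coding genes), 42 with a reciprocal overlap of 50% (46.7%), 49 with replicate 2 alone and 50 with replicate 1 alone (62.8% and 62.7%), and 41, 45 and 48 with distances of 0, 5 and 20 kb (42.8%, 50.1% and 61.4%). Start counts were 29 with wider peaks (22.0% of all genes), 33 with reciprocal overlap (28.2%), 40 within 100 bp (32%) and 43 within 3 kb (38.1%). With reciprocal overlap the 9 members that lost their start region were Eif2ak2, Eif2b5, Eif3g, Eif3h, Eif3k, Eif4a2, Eif4e2, Eif4ebp1 and Eif5b. This overlap was taken between the widest peak of each list alone. At Eif4ebp1 and Eif5b the second of 2 replicate 1 peaks was therefore left out. Either gene end in place of the start gave 42 (34.6%), and only genes with a promoter entry gave 34 (36.4%), both chosen after seeing the data. Peaks without a partner numbered 34 of all member peaks. They were 19 with only the wider peaks and 70 with reciprocal overlap, a move that follows from testing fewer peaks or asking for more overlap. Without read depth or a control library, a gene without a peak may carry signal below the calling limit, and background signal at open promoters cannot be told apart from RUNX2 binding.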

Other observations

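The 3 protein-coding Eif genes on the sex chromosomes, outside the rule, each had a shared region at the start. Eif2s3x, which encodes the gamma subunit of eIF2, had peaks of 769 bp in replicate 1 and 909 bp in replicate 2 (chrX:94212705-94213765). Eif1ax, for eIF1A, had 363 and 626 bp, and the Y-linked Eif2s3y had 237 and 304 bp.

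Of 11 pseudogenes named for the same factors on chromosomes 1 to 19, Eif2s3x-ps1 was the 1 with a shared region (504 and 366 bp), and the other 10 had no peak in either list within 10 kb. The Eif2s3x-ps1 region also counted as a region at the start. Of all 9496 pseudogenes there, 12.7% had a shared region within 10 kb and 2.22% had one at the start. With 1 of 11 Eif pseudogenes, it cannot be judged whether the shares are alike.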
